A study of Drosophila melanogaster with 35 samples.

Results

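The binding of HP6 was compared with that of HP3 in Drosophila Kc167 cells, a line derived from embryos, in which the control gene white had been knocked down. The comparison was taken from the sample titles: 2 arrays of HP6 and 3 arrays of HP3, both after knock-down of white, 5 of the 35 arrays of the series. HP6 (2 arrays) and HP3 (3 arrays) in untreated cells served as a check on other arrays, and HP6 (2 arrays) and HP3 (3 arrays) after knock-down of HP1 as another. All of these cells were transfected with a plasmid for the full-length protein fused to Dam and a Myc tag, and Dam alone gave the other channel of each array. The labels state neither how the knock-downs were done nor whether the replicates are separate cultures. The p-values therefore cover the spread between arrays and no more. The number of arrays limits the precision.

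In DamID, the bacterial adenine methyltransferase Dam is tethered to a chromatin protein, so DNA near the protein's binding sites gains methylation that Dam alone would not place there. HP3 and HP6 were found as interaction partners of heterochromatin proteins. HP3 is encoded by Lhr, a gene known for its part in hybrid lethality between fly species. HP6, also called Umbrea, descends from HP1b and retains the chromoshadow domain, which HP1 proteins use to contact one another and their partners. HP1 itself binds methylated histone H3 in pericentric chromatin and on chromosome 4, and Su(var)3-9 is a methyltransferase that places that mark. Jra, the fly Jun protein, is a transcription factor that the study used as a protein outside heterochromatin.

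The unit throughout is the deposited log ratio, fusion over Dam, of 1 cDNA probe. Its base is not stated in the files or labels and was taken to be 2. Every array was centred on its median, so a value above 0 means a higher ratio of fusion over Dam than at that array's median probe. Values above or below 0 are therefore relative and give no absolute level of binding. The table held 9993 probes and 9928 were tested. DamID measures DNA, so the cell type could not be checked against marker transcripts. The probe for Lhr, the gene carried by the HP3 plasmid, was at 0.10 and -0.03 on the HP6 arrays after white knock-down and at 6.19, 4.62 and 4.74 on the HP3 arrays, and was left out of every count. The array of untreated HP3 replicate 2 correlated with the other untreated HP3 arrays at only 0.0285 to 0.0758 over probes. The array of untreated HP6 replicate 3 had a value of 4.81 at the HP4 probe, inside the range of the HP4 arrays (3.71 to 5.01). It correlated with the other untreated HP6 arrays at 0.482 and 0.591, against 0.599 between those other arrays. Untreated HP3 replicate 2 and HP6 replicate 3 were both left out, and counts with them are given with the other settings.

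Most probes that passed above 0 for HP6 also passed for HP3, and a set of probes differed between the 2 proteins. HP6 was higher than HP3 at 47 probes, 0.473% of those tested, and lower at 18, 0.181% (limma, adjusted p under 0.05). The size of the set depended on the settings. With arrays scaled to the same spread it was 289 higher and 76 lower, and with only the 5 arrays compared 262 and 33. The 47 included probes of KrT95D, toy, Hex-A, scyl, srp, emc, cnc and mor, where HP6 was above 0 and HP3 near or below 0. The 18 were of several kinds. Both proteins had means above 0 at 7 of them, CG2736 and MED15 among these, while at 8 others replicate 1 of HP6 was below -2 and replicate 2 was not. As a background, 527 probes (5.31%) passed above 0 for HP6 and 820 (8.26%) for HP3. The 391 that passed for both were 74.2% of the HP6 list and 47.7% of the HP3 list.

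**Figure D1:**
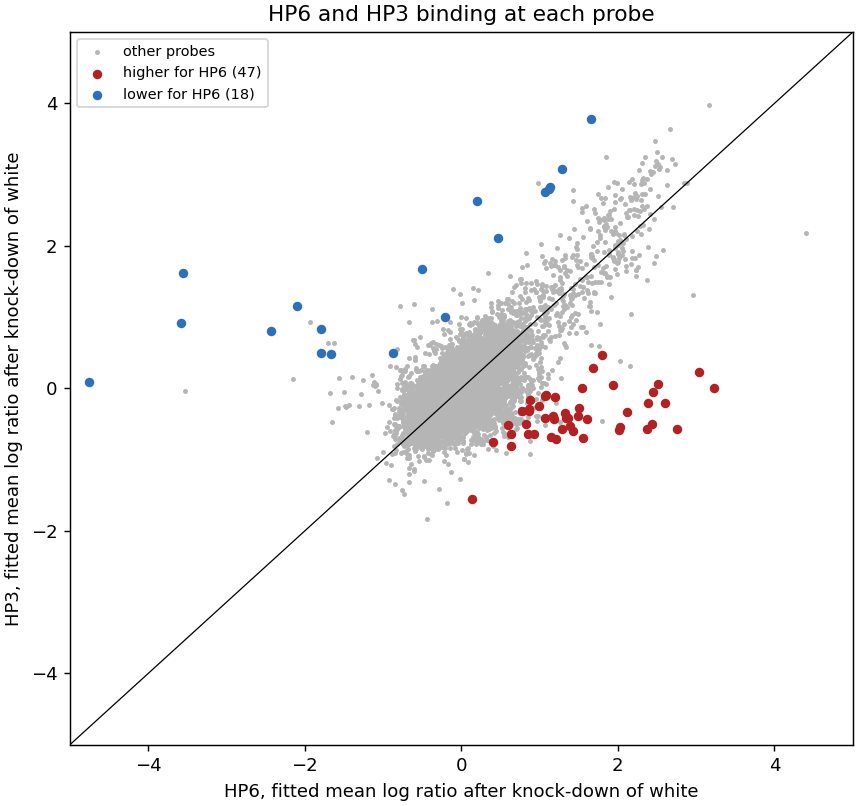
Fitted mean log ratio after knock-down of white for HP6 (x axis) and HP3 (y axis), 1 point per probe, with the diagonal marking equal values. The 47 probes higher for HP6 lie to the right of the diagonal with HP3 between -1.56 and 0.47, and the 18 lower ones lie to the left of it, some with HP6 means below 0 and some with both means above 0.

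Over all probes, the 2 HP6 arrays after white knock-down correlated at 0.674, the 3 HP3 arrays at 0.759 to 0.837, and HP6 with HP3 arrays at 0.511 to 0.662. These are descriptions over probes, which are not independent. The median difference over all probes was -0.03.

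The largest differences in favour of HP6 were at KrT95D, a gene on chromosome arm 3R named as a target of Krüppel. Its probe GM03043 was at 2.77 and 2.76 on the HP6 arrays, against -0.63, -0.48 and -0.73 on the HP3 arrays. All HP6 values lay above all HP3 values, with a difference of 3.34 ± 0.32 (SE; limma adjusted p = 2.1e-07). Untreated cells gave 2.36 and 2.57 for HP6, against -0.03, -0.51 and -0.48 for HP3. The array carries 3 probes of the gene and all 3 passed after white knock-down, with differences of 3.34, 2.57 and 1.78. In untreated cells the differences were 2.96, 2.31 and 0.90, and the smallest of these did not pass (adjusted p = 0.47).

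The gene toy, on chromosome 4, encodes a Pax6 transcription factor that acts early in eye development. Its probe GH14454 was at 3.19 and 3.28 for HP6, against 0.10, -0.06 and -0.11 for HP3, a difference of 3.23 ± 0.31 (SE; limma adjusted p = 2.1e-07). In untreated cells it was at 3.15 and 2.75 for HP6, against 0.36, 0.34 and -0.30 for HP3. The other probe of the gene, GH26083, showed no such gap. Its fitted means were 2.84 for HP6 and 2.88 for HP3, a difference of -0.04 ± 0.40 (SE; limma adjusted p = 1). At GH26083 HP1 was at 2.98 and Jra at -0.21, while at GH14454 HP1 was at 0.96 and Jra at 0.93. The gene thus held 1 probe at which both proteins were far above 0 and another at which HP6 was far above 0 and HP3 was near it.

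The other genes among the 12 most positive included enzymes and a trafficking protein. Hex-A, a hexokinase at the entry of glycolysis, was at 2.35 and 2.42 for HP6, against -0.24, -0.17 and -0.31 for HP3. Cda5, a chitin deacetylase, was at 2.61 and 2.59 for HP6, against -0.15, 0.20 and -0.79 for HP3. Snx27, a sorting nexin of endosomes, was at 2.68 and 2.34 for HP6, against 0.16, 0.11 and -0.31 for HP3. In each of these the HP6 and HP3 arrays did not overlap, and the differences were 2.59 ± 0.32, 2.80 ± 0.45 and 2.45 ± 0.33 (SE). The bb8 gene, a glutamate dehydrogenase of the testis, was at 1.12 and 1.30 for HP6, against -0.62, -0.95 and -0.70 for HP3. Gs1, a glutamine synthetase that stands below the 12 most positive, had a difference of 1.76 ± 0.29 (SE). The functions of CG17325 (2.94 at each of 2 probes), CG14933 (2.60), CG10570 (2.51) and CG33080 (2.45 and 1.89) are not described by the files.

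The 47 probes name 35 distinct genes, since 39 of them have a single gene. The bun gene, a TSC22-type transcriptional regulator, was at 1.60 and 1.62 for HP6, against -0.25, -0.47 and -0.69 for HP3. The scyl gene, an inhibitor of TOR signalling, was at 1.74 and 1.12 for HP6, against -0.30, -0.77 and -0.75 for HP3. For both, every HP6 array was above 0 and every HP3 array below it, and the differences were 2.04 ± 0.27 and 2.03 ± 0.28 (SE). Below these, at sizes of 1.04 to 1.88, came edl (1.83), which antagonises ETS factors, the GATA factor srp (1.54), the Id-type factor emc (1.48), Pvf2 (1.61), a growth factor of the PDGF and VEGF family, Mkp3 (1.18), a phosphatase of MAP kinase, mor (1.15), a subunit of the Brahma remodelling complex, and cnc (1.09), the fly NRF2-type factor. These genes stand below the most positive 12 and were picked for their known roles after their values were seen. A probe of the same gene did not always follow: hang passed at GM07804 (1.86) but was at 0.14 at LD34334, and ps passed at RE47781 (1.32) but was at 0.07 at AT03366, neither of these second probes passing. The second probes of Cyp6a21 (0.93), Mkp3 (0.87) and miple1 (1.19) had the same sign as the first without passing. ND-PDSW, among the genes called in either direction, had a second probe at -0.06 that did not pass.

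**Figure D2:**
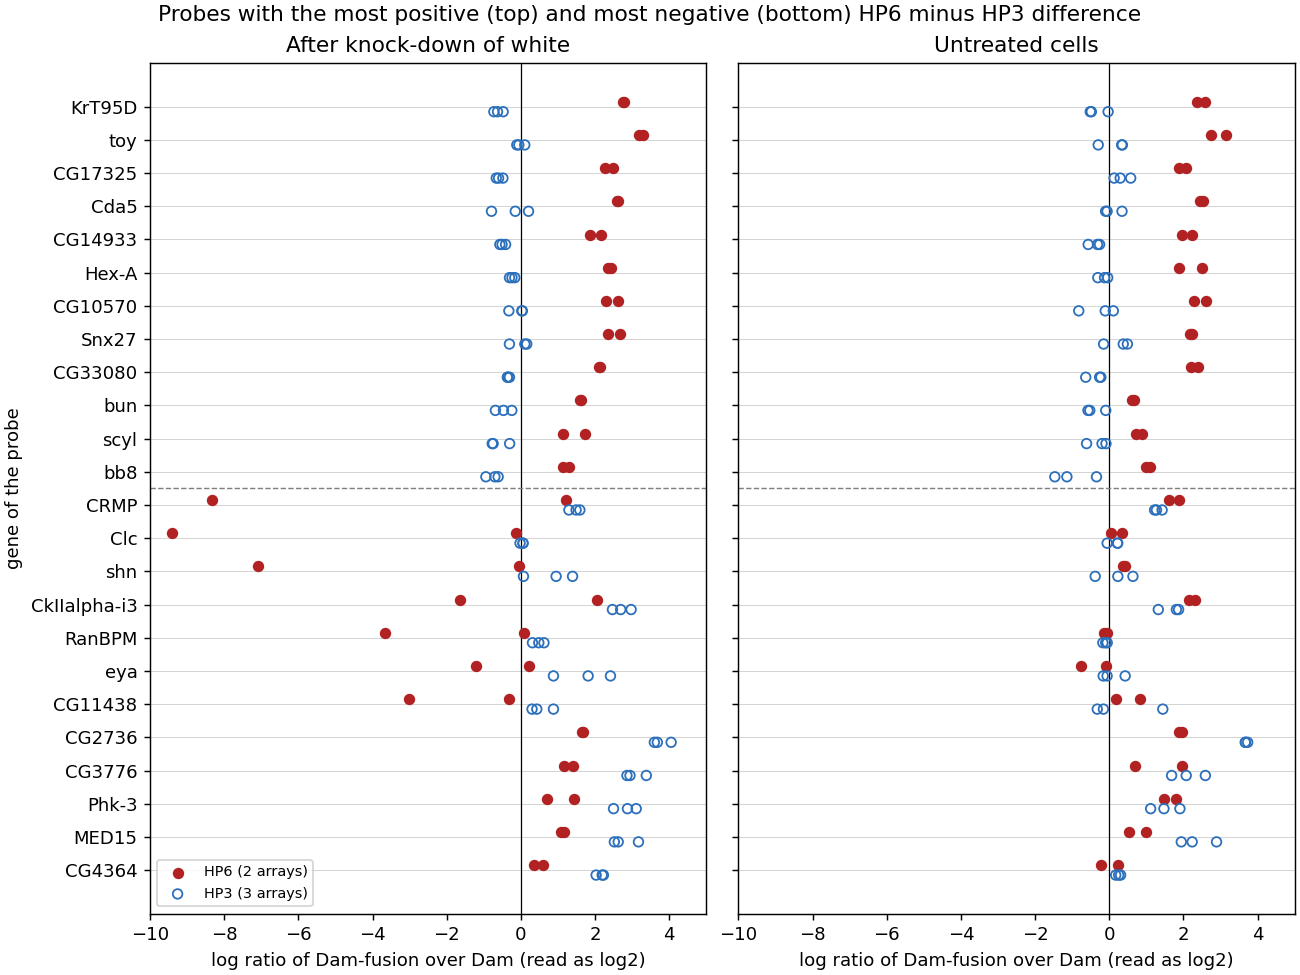
Log ratio of Dam-fusion over Dam on every array for 24 genes, 12 with the most positive and 12 with the most negative HP6 minus HP3 difference (separated by the dashed line), with HP6 arrays filled and HP3 arrays open. For the upper 12 genes the HP6 points lie to the right of all HP3 points in both panels, while among the lower 12 genes CRMP, Clc and shn each have 1 HP6 point at -7.09 or below after white knock-down and none in untreated cells.

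At all 47 probes the arrays of the 2 proteins did not overlap after white knock-down. Over all tested probes HP6 lay above HP3 without overlap at 19.5%. The 47 were selected on these same arrays, so their overlap and levels there are a description and no further evidence. Of the 47, 42 passed above 0 for HP6 and 0 passed above 0 for HP3, where 12 passed below 0 (3.88% of all probes). The mean over arrays was above 0 for HP6 and below 0 for HP3 at 43 of the 47, and above 0 for both at the other 4. The differences ran from 1.04 to 3.34 with a median of 1.76.

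The values of the untreated arrays enter the difference after white knock-down only through the dye term, which all groups share, as they share the estimate of spread. On those arrays HP6 exceeded HP3 at 46 of the 47, against 50.5% of all probes, and without overlap at 41. The exception was CG2865 (1.18 after white knock-down and -0.01 in untreated cells). Of the 47, 25 passed on the untreated arrays, where 40 of all probes (0.403%) were higher for HP6. Both untreated HP6 arrays compared had the fusion in Cy3, while the HP3 arrays were in both dyes. Protein and dye are therefore partly confounded in this check. The tests include a dye term, but the count without overlap does not allow for dye. Without the dye term, 27 probes were higher and 12 lower in untreated cells. The median untreated difference was 1.22. After HP1 knock-down HP6 was the higher at 47 of 47, against 44.3% of all probes, and 36 passed (1.19% of all probes passed as higher for HP6 there), with a median of 1.40. A total of 23 passed in all 3 settings. The test of the change between white knock-down and untreated cells called 0 of 9928 probes, with 255 at an unadjusted p under 0.05.

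**Figure D3:**
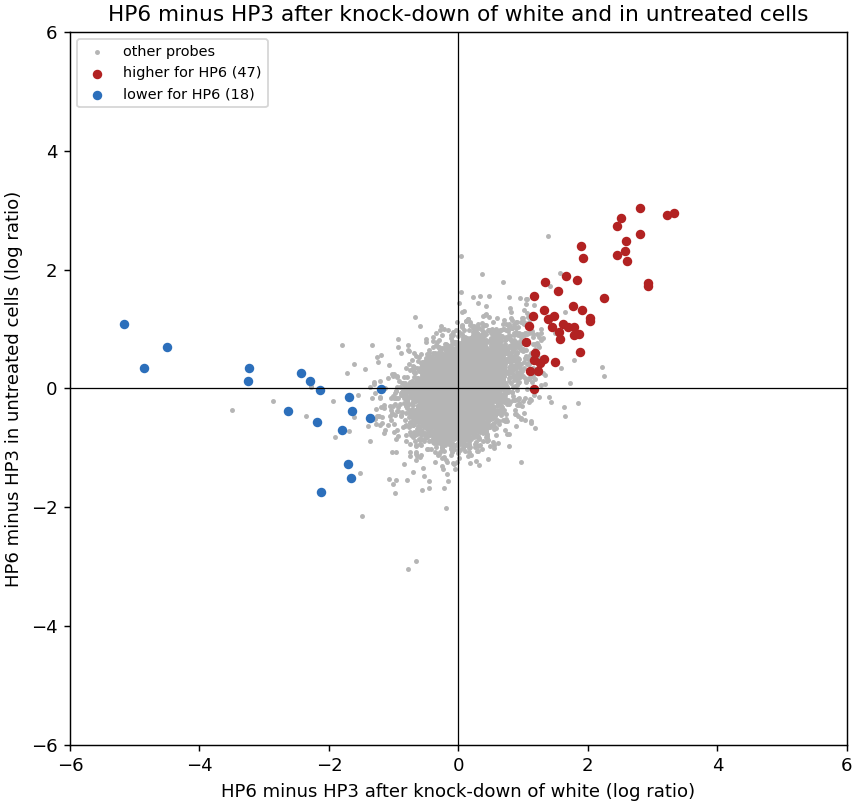
HP6 minus HP3 difference (log ratio) after white knock-down (x axis) against that in untreated cells (y axis), 1 point per probe. All but 1 of the 47 probes higher for HP6 lie above 0 on both axes, while the 18 lower ones straddle 0 on the untreated axis, between -1.74 and 1.08.

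A further 25 probes passed in untreated cells but not after white knock-down, and all 25 had the same sign in both. The test of the change called none of them. On the higher side were 15 probes, among them noc (0.99 after white knock-down, 1.18 untreated) and AdamTS-B (0.85 after white knock-down, 1.08 untreated). On the lower side were 10, of which Tip60, an acetyltransferase, had the largest gap (-0.77 after white knock-down, -3.04 untreated).

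Called genes were found beside each other. On arm 2L, CG10570, CG17325 and Ugt36F1, a glycosyltransferase gene, lie 2 protein-coding genes apart from one to the next. Their differences were 2.51, 2.94 and 1.17. The following genes had 0.91 at Ugt36D1, which did not pass (adjusted p = 0.15), and -0.19 at Ugt36E1. On X, CG33080 and Snx27 are immediate neighbours, with AdamTS-B on the other side of CG33080 at 0.85 (adjusted p = 0.16). On 3R, mor and srp flank Hel89B, whose difference of 1.28 did not pass (adjusted p = 0.25), and CG6763 and bb8 flank wam (0.11). The order of genes is that of the Release 6 RefSeq assembly, and no measured neighbour of KrT95D or Hex-A within 5 genes passed.

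The lower side held a run of neighbours too. On 2R, CG3776, Phk-3 and CG2736 are consecutive, and all 3 passed. CG2736, a member of the CD36 family of scavenger receptors, was at 1.64 and 1.68 for HP6, against 4.05, 3.68 and 3.60 for HP3, a difference of -2.13 ± 0.36 (SE; limma adjusted p = 0.00085). In untreated cells it was at 1.95 and 1.89 for HP6, against 3.73, 3.67 and 3.68 for HP3, and the difference of -1.74 passed again. CG3776 was at 1.17 and 1.41 for HP6, against 3.38, 2.94 and 2.86 for HP3. Phk-3, which encodes a pherokine, was at 1.42 and 0.71 for HP6, against 3.11, 2.87 and 2.50 for HP3. After white knock-down both proteins were therefore above 0 at all 3 genes, and every HP3 array lay above both HP6 arrays. In untreated cells the differences at CG3776 (-0.69) and Phk-3 (-0.14) did not pass. The next gene, emp, another member of the CD36 family, had -1.69 and did not pass (adjusted p = 0.0508). On either side of the run the differences were 0.59 at CG3829 and 0.38 at CG2765, neither of which passed. The calls at CG2736 and CG3776 were lost with all 35 arrays in the fit. That at CG3776 was also lost with equal spread and, as was that at Phk-3, without either HP6 array.

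**Figure D4:**
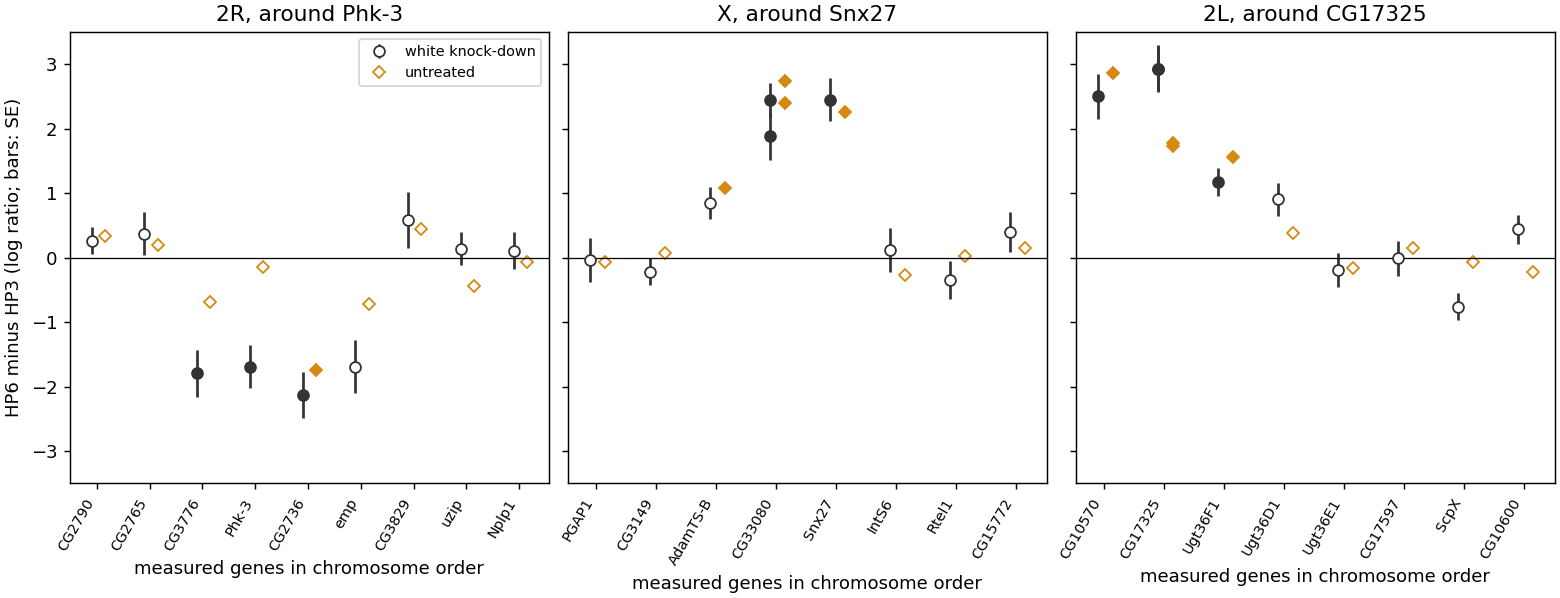
HP6 minus HP3 difference (log ratio) for measured genes in chromosome order around Phk-3 on 2R, Snx27 on X and CG17325 on 2L, with circles and SE bars for white knock-down, diamonds for untreated cells, and filled symbols where adjusted p was under 0.05. The runs of called genes end within a few genes on each measured side, and on 2L no gene within 5 before CG10570 was measured.

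MED15, CG4364 and Iris, also lower for HP6, had both HP6 arrays below all HP3 arrays without an extreme value. MED15, a subunit of the Mediator complex, was at 1.17 and 1.09 for HP6, against 3.17, 2.52 and 2.62 for HP3, a difference of -1.67 ± 0.28 (SE; limma adjusted p = 0.00093). It passed in untreated cells as well, at 0.98 and 0.54 for HP6, against 2.24, 2.90 and 1.94 for HP3. The call after white knock-down was lost with all 35 arrays and with equal spread. CG4364, the fly pescadillo, which works in ribosome assembly, was at 0.60 and 0.34 for HP6, against 2.22, 2.03 and 2.19 for HP3. The difference of -1.64 ± 0.22 (SE) passed after white knock-down, and -1.32 did after HP1 knock-down. In untreated cells HP3 was at 0.31, 0.26 and 0.18, and the difference of -0.38 did not pass. Iris, a gene derived from a retroviral envelope, was at -0.32 and -0.09 for HP6, against 1.05, 0.98 and 0.93 for HP3. Its difference of -1.20 ± 0.26 (SE) passed after white knock-down, with -0.93 after HP1 knock-down, which passed, and -0.01 in untreated cells, which did not. Arrays did not overlap at 16 of the 18 lower probes, against 19.3% of all probes with HP6 below HP3. The 18 were selected on these same arrays, so this too is only a description. In untreated cells 11 of the 18 had a difference below 0, against 49.5% of all probes, and 2 passed (0.121% of all probes were lower for HP6 there). After HP1 knock-down 15 had a difference below 0, against 55.7% of all probes, and 3 passed (3.11% of all probes were lower for HP6 there).

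The other lower genes depended on 1 HP6 array to different degrees. Replicate 1 of HP6 after white knock-down was below -2 at 8 of the 18 probes, and replicate 2 at 0 of those 8. CRMP, which encodes dihydropyrimidinase and its relative collapsin response mediator protein, was at -8.33 and 1.23 for HP6, against 1.59, 1.29 and 1.49 for HP3. Clc, the clathrin light chain, was at -9.40 and -0.12 for HP6, against -0.02, 0.05 and 0.06 for HP3. The gene shn, a zinc-finger factor of the Dpp pathway, was at -7.09 and -0.06 for HP6, against 1.39, 0.07 and 0.95 for HP3. Their differences of -5.17, -4.86 and -4.50 are the most negative of the comparison, with standard errors of 1.15, 1.16 and 0.90. In untreated cells the differences were 1.08, 0.34 and 0.70. A second probe was at -0.39 for CRMP and -0.01 for shn.

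The remaining probes of that kind were RanBPM (-3.66 and 0.07 for HP6), CG11438 (-3.01 and -0.32), mbl, Dr and an unnamed one. RanBPM, with a second probe at 0.17, had a difference of -2.29, and CG11438 one of -2.14. Arrays overlapped at mbl and Dr. CkIIalpha-i3 (2.05 and -1.65 for HP6, against 2.97, 2.69 and 2.47 for HP3) and eya (0.20 and -1.21 for HP6, against 2.41, 1.81 and 0.88 for HP3) were low on replicate 2 instead. The differences were -2.43 and -2.18, and a second probe of eya, a phosphatase and cofactor of eye development, was at 0.46. In untreated cells 2 of the 8 probes low on replicate 1 had a difference below 0, against 9 of the other 10. Over the whole array, replicate 1 of HP6 had 31 probes below -2, and the other 4 arrays after white knock-down had 1 to 15. Without this array 25 probes were lower, of which 5 were among the 18, and 21 were higher, of which 20 were among the 47. The difference at Clc was then 0.02 (adjusted p = 1).

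The proteins of heterochromatin and Jra were set against the called probes. These arrays were of untreated cells, and the labels do not say whether arrays shared the DNA of cells with Dam alone. Of the 47 probes higher for HP6, 29 passed above 0 for Jra, against 12.4% of all probes, and 46 had a Jra mean above 0, against 48.2% of all. Their median Jra value was 0.75. Su(var)3-9 passed below 0 at 31 of the 47 (18.6% of all probes), HP4 at 33 (23.0%) and HP5 at 29 (20.1%), and none of these 3 proteins passed above 0 at any of them (16.6%, 20.6% and 19.5% of all probes did). HP1 passed above 0 at 4 (8.91% of all probes), and its median was -0.04. Of the 18 lower probes, 7 passed above 0 for HP1 (8.91% of all probes) and 3 for Jra (12.4%). For HP4 4 passed above 0 (20.6%), for HP5 2 (19.5%) and for Su(var)3-9 1 (16.6%). Below 0, 3 passed for Su(var)3-9, 1 for HP4 and 2 for HP5 (18.6%, 23.0% and 20.1% of all probes did).

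**Figure D5:**
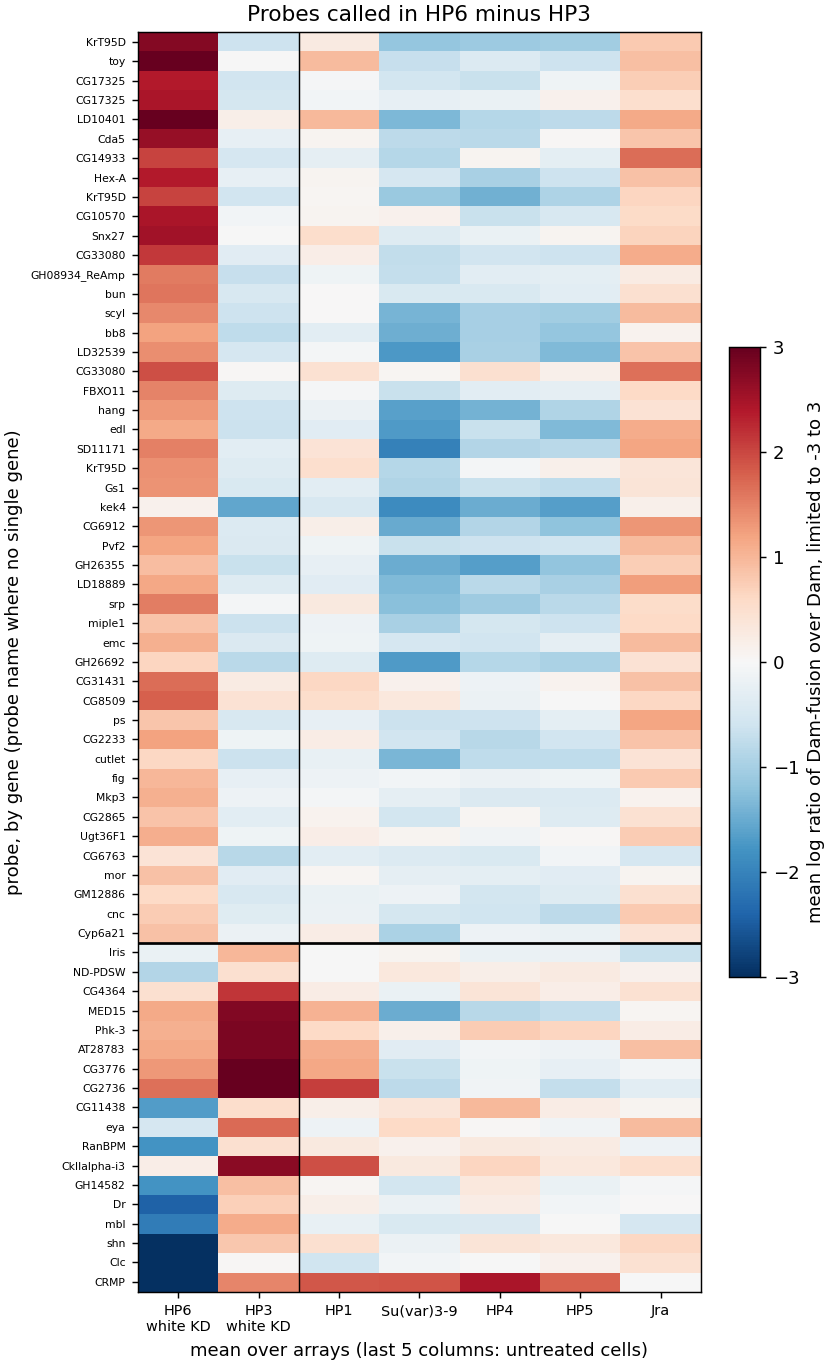
Mean log ratio over arrays of 7 proteins (columns) at the 65 called probes (lines), the 47 higher for HP6 above the thick line and the 18 lower below it, in colours limited to -3 to 3. Above the line HP6 is above 0, HP3 is mostly below 0, Su(var)3-9, HP4 and HP5 are mostly below 0 (medians of -0.73, -0.62 and -0.58), and Jra is above 0 at 46 probes.

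The same held in part for the whole array. At the 1232 probes that passed above 0 for Jra, the median difference between HP6 and HP3 was 0.23 after white knock-down and 0.22 in untreated cells, against -0.03 over all probes after white knock-down. At the 1648 that passed above 0 for Su(var)3-9 it was -0.25 after white knock-down and -0.03 in untreated cells. Across probes the difference after white knock-down correlated at 0.341 with Jra and at -0.402 with Su(var)3-9. In untreated cells these values were 0.244 and -0.154. They are descriptions over 9928 probes and carry no p. The median at the 885 probes that passed above 0 for HP1 was -0.02 after white knock-down and 0.13 in untreated cells.

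By chromosome arm, the higher probes with a located gene numbered 8 of 1327 tested on X, 11 of 1613 on 2L, 2 of 1768 on 2R, 4 of 1649 on 3L, 13 of 2068 on 3R and 1 of 60 on chromosome 4. The lower ones numbered 0 on X, 5 on 2L, 6 on 2R, 3 on 3L, 2 on 3R and 0 on chromosome 4. No test of the difference between arms was made.

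Gene lists were read with the probes of a gene averaged, which left 7698 genes, 33 higher (0.429%) and 13 lower (0.169%), with a median of -0.04 and 45.4% above 0. Genes of pericentric heterochromatin, 21 measured, had no member past the threshold in either direction. Their median per array was 2.14 and 1.82 for HP6, against 2.81, 2.24 and 2.36 for HP3. Of the 21, 4 had a difference above 0, and the median difference was -0.56. It was -0.35 with all arrays scaled to the same spread, and without that scaling -0.38 in untreated cells and 0.26 after HP1 knock-down. The members with the largest size were Nipped-B, a loader of cohesin, at -1.91, CG2519 at -1.21 and Haspin, a histone kinase, at -0.99, none of which passed. All 3 were lowest on replicate 2 of HP6. Nipped-B was at 2.36 and -0.40 for HP6, against 3.20, 2.86 and 2.67 for HP3. CG2519 was at 2.42 and 0.44 for HP6, against 2.74, 2.64 and 2.66 for HP3. Haspin was at 2.13 and 0.94 for HP6, against 3.06, 2.24 and 2.36 for HP3.

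On chromosome 4, with 48 genes measured, only toy passed. The per-array medians were 1.81 and 1.48 for HP6, against 1.76, 1.31 and 1.32 for HP3, so the groups overlapped. The median difference was 0.11 after white knock-down (0.29 with equal spread) and -0.01 in untreated cells. After HP1 knock-down it was 0.55, with 7 genes higher and 3 lower (1.2% and 3.83% of all genes). zfh2, a zinc-finger homeodomain factor, was at 1.64 (adjusted p = 0.06, and 0.006 with equal spread), and eIF4G1, a translation initiation factor, at 2.22 with 1 HP6 array at 6.77 (adjusted p = 0.22). Among 235 genes nearest the centromeres 0 were higher and 1 was lower, CG11438, with a median of -0.08. Among 58 nearest the telomeres Cda5 and Gs1 were higher and none was lower, with a median of 0.05 and emp at -1.69.

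Of the regulatory lists, the AP-1 and JNK pathway had 18 genes measured and none past the threshold. Its median was 0.24 after white knock-down and 0.08 in untreated cells. After white knock-down 14 of 18 were above 0 (45.4% of all genes), and in untreated cells 11 of 18 were (51% of all genes). The members with the largest size were puc, the phosphatase that restrains JNK, at 1.22 (adjusted p = 0.07), the ETS factor Ets21C at 1.03 (adjusted p = 0.13) and Gadd45, a stress-response gene, at 0.78 (adjusted p = 0.45). With all arrays scaled to the same spread, these 3 passed, among 209 of the 7698 genes that were higher in that setting. Polycomb target genes, 18 measured, had toy and srp higher and Dr lower, and hemocyte genes, 20 measured, had srp higher. The call at Dr came from replicate 1 of HP6, with -5.31 and 0.46 for HP6, against 1.12, 0.31 and 0.74 for HP3. In untreated cells the difference at Dr was 0.34. Of 23 genes of chromatin activators, mor was higher.

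The other lists had no member past the threshold. With equal spread, 2 genes of mitochondrial ribosomal proteins and 1 each of the muscle, cell cycle, immune and heat shock lists were higher, and 209 of all genes were. The 34 genes of cytoplasmic ribosomal proteins had a median of -0.18, and 8 of them were above 0. The 61 of mitochondrial ribosomal proteins had a median of -0.15, with 15 above 0. Region 31 of 2L (30 genes) had a median of 0.08 and CG31715 at -1.36 (adjusted p = 0.07). Heterochromatin factors (26 genes) had a median of 0.07. The lists of ecdysone response, neuronal, muscle, cell cycle, immune and heat shock genes had medians of 0.10, 0.17, 0.07, 0.01, 0.04 and -0.03 after white knock-down. In untreated cells, in the same order, they were -0.19, -0.14, -0.15, 0.03, -0.16 and -0.01, so the ecdysone, neuronal, muscle and immune medians had the other sign there.

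After HP1 knock-down HP6 was higher than HP3 at 118 probes and lower at 309 (3.11%). Which side held the majority depended on the scaling. The share of higher calls was 27.6%, became 45% with all arrays scaled to the same spread, and 66.2% after quantile normalisation, with 392 higher and 200 lower. The test of the change of the difference between HP1 and white knock-down called 1 probe (0.0101%), that of Taf12, with 607 at an unadjusted p under 0.05. Taf12, a subunit of TFIID, was at 0.35 and 0.57 for HP6 after HP1 knock-down, against 1.71, 2.21 and 1.41 for HP3. After white knock-down it was at 0.12 and 0.38 for HP6, against -0.06, -0.34 and -0.42 for HP3. The change was -1.84 ± 0.31 (SE; limma adjusted p = 0.024).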

How the data were processed

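As deposited by the authors, each cDNA probe on a 2-colour array has a log ratio (fusion signal over Dam signal), read as log2. Values beyond 8 in size go against base 10, and base e is not settled, so sizes depend on that reading and tests do not. Per the labels, the fusion was in Cy3 or Cy5. The authors had centred each array (medians -0.00017 to 0.00027). The sources used here give no scanner, background correction, normalisation or genome build, and signal over background is unknown. Of all values, 434 (0.12%) were missing.

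After centring of every array on its median, limma 3.58.1 in R 4.3.3 fitted a model with a mean for each of 11 groups and a dye term to 33 arrays, without untreated HP6 replicate 3 and untreated HP3 replicate 2 (21 residual degrees of freedom). Probes needed 2 values in each group, and 65 were left out, Lhr among them. Tests were two-sided, with Benjamini-Hochberg adjustment over all tested probes of a comparison, at a threshold of 0.05. The groups share 1 estimate of spread. Values after ± are the model's SE. "Passed" and "called" mean an adjusted p under 0.05, and "higher" means HP6 above HP3.

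Of the probes, 8682 have 1 gene, 298 several and 1013 none given, and 8539 were matched by gene ID to the Release 6 RefSeq table, used for names, arms and gene order only. Named genes are the 12 most positive and 12 most negative passing probes with a single symbol and arrays that do not overlap, 1 probe per gene, up to 3 members of each gene list with the largest differences, and genes of the fusion proteins. Others are named as chosen after their values were seen, as are neighbours and genes called in untreated cells alone. The members and lists were chosen with earlier results of these data known. The procedure was also run on simulated data with normally distributed noise. Such noise does not model extreme values on single arrays, and no result here rests on that run. The genes of HP6 and white are not analysed here. Same-numbered HP6 and HP3 arrays deviated from their group means with correlations of 0.271 and 0.304, from 2 pairs, too few to establish a pairing. Alternatives were other scalings, no dye term, all 35 arrays, only the 5 arrays compared, complete probes, a replicate block and each compared array left out.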

Additional observations from a re-analysis of the deposited data

Results flagged for a closer look

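The HP6 minus HP3 difference at Taf12 changed by -1.84 between HP1 knock-down and white knock-down by a test of the change itself (limma adjusted p = 0.024), and all HP3 arrays were higher than all HP6 arrays after HP1 knock-down. An array outside the comparisons, untreated HP6 replicate 3, had 4.81 at the HP4 probe, while the other 2 untreated HP6 arrays had 0.04 and 0.15. Counts with that array are given with the other settings.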

How the results depend on the processing

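After white knock-down, the 47 higher and 18 lower probes became 289 and 76 with arrays scaled to the same median absolute deviation, 244 and 64 after quantile normalisation, 262 and 33 with only the 5 arrays compared, and 31 higher and 12 lower with all 35 arrays. Of the 47, 47 were called under each of the first 3 settings, and of the 18, 15, 18 and 7. With the replicate block there were 234 higher and 72 lower, 46 and 9 of them shared, and the replicate numbers do not establish a pairing. Leaving out 1 of the 5 compared arrays at a time gave 21 to 41 higher and 5 to 37 lower. The fewest higher came without HP6 replicate 1, the fewest lower without HP3 replicate 1, and the most lower without HP6 replicate 2. Clc was at 0.017 without HP6 replicate 1, the only reversal among the named genes in these settings, and at -9.513 without HP6 replicate 2. Of the 24 named genes, CRMP, Clc, shn, CkIIalpha-i3, RanBPM, eya, CG11438, CG3776 and Phk-3 each lost their call, or reversed, without at least 1 of these arrays, and no gene higher for HP6 did. With all 35 arrays bb8, CkIIalpha-i3, CG11438, CG2736, CG3776 and MED15 lost theirs. Without dye term, without centring or with complete probes only, both counts stayed within 1.5 times.

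In untreated cells, 40 higher and 12 lower became 17 and 3 with all 35 arrays, 86 and 21 with equal spread, 131 and 60 after quantile normalisation, and 132 and 381 with only the 5 arrays, and leaving out 1 of the 5 untreated arrays compared gave 17 to 40 and 3 to 13 (17 and 4 without HP6 replicate 1, 21 and 3 without HP6 replicate 2, 19 and 5 without HP3 replicate 1, 25 and 13 without HP3 replicate 4). After HP1 knock-down, 118 higher and 309 lower became 299 and 365 with equal spread, 713 and 1285 with the replicate block, 392 and 200 after quantile normalisation and 73 and 203 with all 35 arrays (both chosen after seeing the data), and leaving out 1 of the 5 arrays after HP1 knock-down gave 23 to 73 and 16 to 310 (23 and 16 without HP6 replicate 1, 24 and 62 without HP6 replicate 2, 69 and 182 without HP3 replicate 1, 48 and 53 without HP3 replicate 2, 73 and 310 without HP3 replicate 3). The change between HP1 and white knock-down called 1 higher and 14 lower with equal spread and 12 and 128 with the replicate block, both chosen after seeing the data. The cause of these shifts was not tested. With 2 HP6 arrays, a value on 1 array can make a call, and no signal over background was available to weigh it.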
